A study of Mus musculus with 6 samples.

Results

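Chemokine ligands are small secreted proteins that guide the migration of leukocytes and other cells, and 9 of them were followed here in whole tibialis anterior (TA) muscle after knockdown of Yap: Ccl2, Ccl7, Ccl8, Ccl6, Ccl9, Ccl11, Cxcl12, Cxcl14 and Cx3cl1. They were taken by symbol from a table of 13226 genes, in which all 9 were found. The list was chosen by family with the fold changes of this same contrast, read in these 6 libraries, in view. Every difference between groups is therefore given for these 9 genes as a description and without a test of the list. Calls from fits over all genes are counted beside the share of all genes called, and lend no support to a difference. Ccl2 was the ligand with the clearest difference, at 0.334 to 1.40 CPM (counts scaled to the library total) in the controls and 2.27 to 5.82 CPM with Yap-shRNA. Its neighbour Ccl7 showed the next highest fold change but its groups overlapped, and the most abundant ligands, Cxcl14, Ccl11 and Cxcl12, differed little.

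The 6 libraries were made from polyadenylated RNA of TA muscles of male C57BL/6 mice that were 8 weeks old and were sampled 7 days after injection into the muscle. In the Yap-shRNA group (n = 3) the muscle received AAV6:Yap-shRNA, an adeno-associated virus carrying a short hairpin RNA against Yap in a vector backbone that also encodes eGFP under a CMV promoter, which is active in many cell types. In the control group (n = 3) the vector field gives AAV6:LacZ-shRNA, whereas the sample titles name an empty vector, so the control is called control here. Both muscles of a pair came from the same animal, and the labels do not state which control and treated libraries share an animal. All muscles of both groups had therefore received a virus by injection, and no uninjected muscle was analysed here.

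Library totals ran from 11987167 to 12710393 counts, and the 10 most abundant genes took 27.0 to 28.5% of a library. The targeted gene, Yap1, had 781 to 915 counts in control libraries and 311 to 495 in Yap-shRNA libraries, with a mean of 46.5% of control after scaling (p = 0.10 in a two-sided exact permutation test, the lowest value that groups of 3 can reach). Markers of muscle fibres were abundant in each library, as the labelled tissue has them, at a sum of 144156 to 169991 CPM. Over all genes, edgeR's quasi-likelihood test called 0 of 13226 at an adjusted p under 0.05, with 232 at an unadjusted p under 0.05. DESeq2, with 135 at an unadjusted p under 0.05, and edgeR's likelihood ratio test called 5 each. When genes do not differ, a cutoff of 0.05 passes on average a share of 0.05, and both unadjusted counts were below that share. The reason was not tested, and 0 calls do not show an absence of change. A p-value from any of these tests measures only the spread between these 6 muscles. The tests, with the permutation test for Yap1, took the muscles as independent, although they come in pairs.

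Chemokines act through G protein-coupled receptors on the cells they attract and are held on matrix and vessel walls by glycosaminoglycans. Their families are named for the spacing of the first cysteine pair of the mature protein. In skeletal muscle, CC ligands such as Ccl2 are best known for drawing monocytes from blood after injury, whereas Cxcl12 is made constantly by stromal and vessel cells and retains cells that carry Cxcr4.

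The family signature is shown in the coding sequences of the 9 genes because the results are ordered by it. Each line gives the coding strand around a cysteine pair, with 15 bases on either side, from GENCODE M21 on GRCm38. The pair was found as the first, after the first 15 codons, with the spacing that the family name gives. The spacing was thus set by the name and is an illustration. Capitals mark the cysteine codons.
Ccl2: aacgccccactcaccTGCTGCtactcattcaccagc
Ccl7: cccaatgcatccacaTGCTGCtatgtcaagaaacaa
Ccl8: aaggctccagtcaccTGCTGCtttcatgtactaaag
Ccl11: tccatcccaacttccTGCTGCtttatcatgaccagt
Ccl6: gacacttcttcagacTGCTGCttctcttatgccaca
Ccl9: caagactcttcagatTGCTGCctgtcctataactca
Cxcl12: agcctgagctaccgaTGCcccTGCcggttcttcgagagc
Cxcl14: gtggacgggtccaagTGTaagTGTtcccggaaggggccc
Cx3cl1: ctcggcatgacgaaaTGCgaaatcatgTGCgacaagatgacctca
In all 6 CC ligands the codons adjoin. In Cxcl12 and Cxcl14 they are separated by 1 codon, and in Cx3cl1 by 3 codons. The Ccl2 stretch lies at chr11:82036491-82036526, that of Cxcl12 at chr6:117171493-117171531 and that of Cx3cl1 at chr8:94778036-94778080, all on the plus strand and within 1 exon, whereas the Cxcl14 stretch, at chr13:56295900-56296116 on the minus strand, crosses an intron. The other CC stretches lie within 1 exon of Ccl7 (chr11:82046523-82046558), Ccl8 (chr11:82116041-82116076) and Ccl11 (chr11:82061681-82061716) on the plus strand and of Ccl6 (chr11:83589371-83589406) and Ccl9 (chr11:83575911-83575946) on the minus strand. Coding length, without the stop codon, was 1185 bases in Cx3cl1, whose chemokine domain sits on a membrane-bound mucin stalk, against 279 to 444 bases in the others.

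The 6 CC genes form a pair of clusters on chromosome 11. Ccl2 (ENSMUSG00000035385, chr11:82035571-82037453), Ccl7 (ENSMUSG00000035373, chr11:82045712-82047525), Ccl11 (ENSMUSG00000020676, chr11:82057823-82062955) and Ccl8 (ENSMUSG00000009185, chr11:82115185-82116799) follow one another on the plus strand. Ccl9 (ENSMUSG00000019122, chr11:83572919-83578636) and Ccl6 (ENSMUSG00000018927, chr11:83587882-83593087) lie on the minus strand, 1456119 bp beyond Ccl8. The gap between Ccl2 and Ccl7 is 8258 bp, that between Ccl7 and Ccl11 is 10297 bp, and that between Ccl9 and Ccl6 is 9245 bp. Cxcl12 (ENSMUSG00000061353, chr6:117168535-117181367, plus strand), Cxcl14 (ENSMUSG00000021508, chr13:56288643-56296551, minus strand) and Cx3cl1 (ENSMUSG00000031778, chr8:94772009-94782427, plus strand) lie on other chromosomes.

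The coding sequences were also compared with one another. Aligned end to end, the coding sequences of Ccl7 and Ccl11 were identical at 66.3% of alignment columns and those of Ccl6 and Ccl9 at 64.8%, and those of Ccl2 and Ccl7 at 45.3%. No stretch of 50 bases from the principal annotated transcript of any of the 9 genes was found in a transcript of another of them. Exons outside the principal transcripts were not compared with one another. Only Ccl9 shared such stretches with other genes, 59 of its 2957, in a repeat also found in 463 genes, so a small part of its reads could have been placed elsewhere.

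Ccl2 is the main attractant of monocytes that carry Ccr2. In controls 1, 2 and 3 it had 18, 4 and 7 counts, and in Yap-shRNA libraries 1, 2 and 3 it had 27, 72 and 73. Scaled for library size by edgeR's TMM method, these were 1.40, 0.334 and 0.574 CPM in the controls, and 2.27, 5.53 and 5.82 CPM after Yap-shRNA. Each Yap-shRNA library lay above each control library, an arrangement found in 2.56% of all genes, and Yap-shRNA 1 lay closer to control 1 than to the other Yap-shRNA libraries. Means were 0.770 ± 0.560 CPM (SD, n = 3) and 4.54 ± 1.97 CPM (SD, n = 3), and the fitted log2 fold change was 2.53 (standard error, SE, 0.51), or 5.78-fold. Without control 1 the log2 fold change was 3.29 and without control 2 it was 2.18, the ends of the range over muscles left out. Counting error alone was wide at this depth: the exact 95% Poisson interval ran from 1.09 to 10.2 counts for the 4 counts of control 2 and from 17.8 to 39.3 for the 27 counts of Yap-shRNA 1, and it overlapped that of control 1, at 10.7 to 28.4 counts. These intervals cover counting error only.

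Ccl7, which shares the receptor Ccr2 and also acts on other CC receptors, had 16, 1 and 3 counts in the control libraries and 13, 46 and 33 in the Yap-shRNA libraries. On the CPM scale it stood at 1.25, 0.0840 and 0.246 in the controls, and at 1.09, 3.53 and 2.63 after Yap-shRNA. Control 1 lay above Yap-shRNA 1, so the groups overlapped, while Yap-shRNA 2 and 3 lay above every control. Means were 0.525 ± 0.629 and 2.42 ± 1.24 CPM (SD, n = 3 each), with a log2 fold change of 2.16 (SE 0.71). Control 1 held most of the control counts of the gene: without that library the log2 fold change was 3.80, and without control 2 it was 1.68. Ranked by log2 fold change among the 13226 genes, Ccl2 was number 5 from the top and Ccl7 number 7.

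Ccl8, another monocyte and T cell attractant of the first cluster, did not follow its neighbours. Its counts were 27, 13 and 5 in the controls and 13, 12 and 33 after Yap-shRNA, or 2.10, 1.09 and 0.410 CPM against 1.09, 0.921 and 2.63 CPM. The highest control library exceeded Yap-shRNA 1 and 2, and the log2 fold change of 0.36 (SE 0.58) was smaller than its error. It was -0.26 without Yap-shRNA 3 and 1.04 without control 1, so single libraries set its sign.

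**Figure D1:**
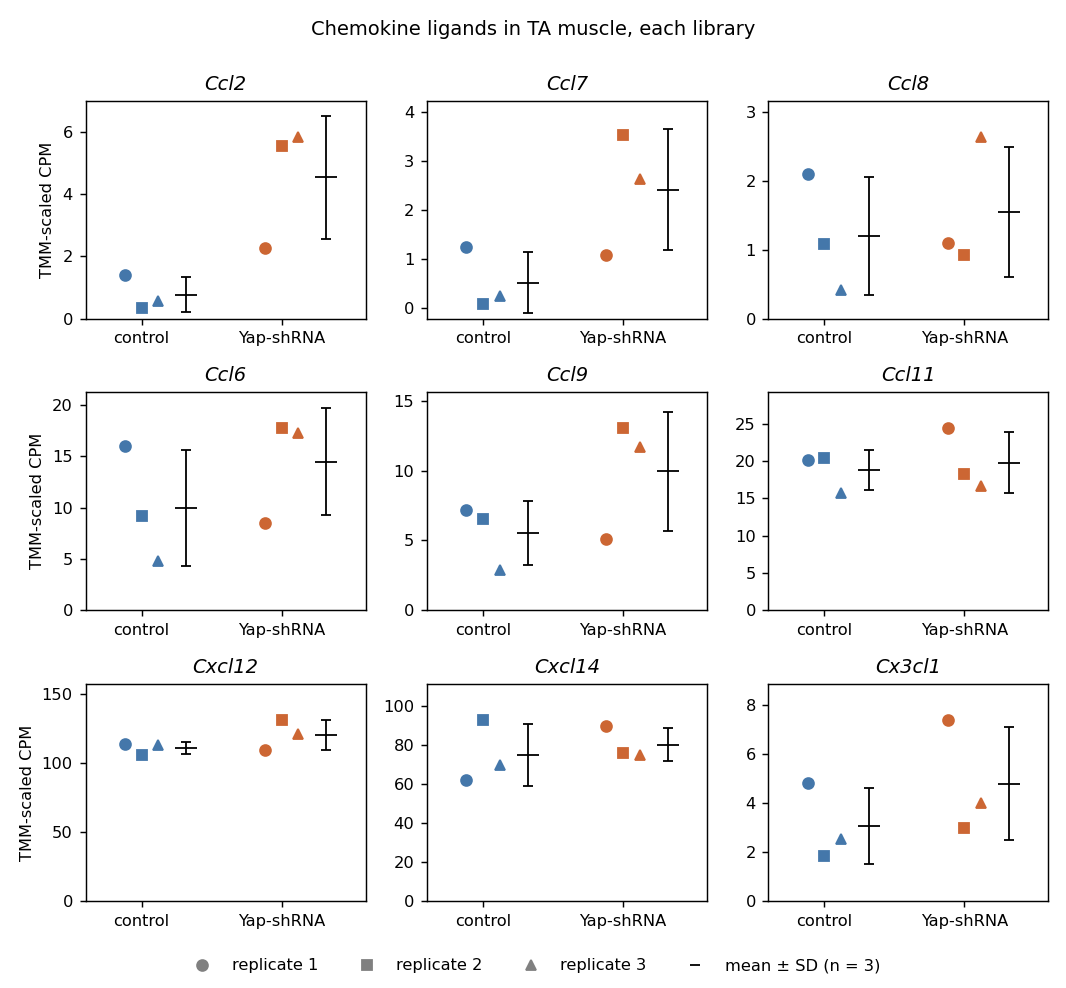
TMM-scaled CPM of each of the 9 chemokine ligands, with 1 panel per gene on its own linear axis, in 3 control (blue) and 3 Yap-shRNA (orange) muscles; circles, squares and triangles are replicates 1, 2 and 3, and bars give the mean ± SD. Only for Ccl2 do all Yap-shRNA muscles lie above all control muscles, and for Ccl7 control 1 (1.25 CPM) lies just above Yap-shRNA 1 (1.09 CPM).

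Ccl6 and Ccl9, mouse CC chemokines of myeloid cells that act mainly on Ccr1, were more abundant than Ccl2 in control muscles. Ccl6 had 206, 110 and 58 counts in control libraries and 101, 231 and 217 in Yap-shRNA libraries, which gave 16.0, 9.20 and 4.76 CPM against 8.47, 17.7 and 17.3 CPM. Control 1 reached nearly the level of Yap-shRNA 2 and 3, and Yap-shRNA 1 lay below control 1 and 2. The log2 fold change was 0.54 (SE 0.40), and it ranged from 0.20 without control 3 to 1.06 without control 1.

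Ccl9 had 92, 78 and 35 counts in the controls and 61, 170 and 147 after Yap-shRNA, or 7.16, 6.52 and 2.87 CPM against 5.12, 13.1 and 11.7 CPM. Yap-shRNA 2 and 3 stood above all controls and Yap-shRNA 1 below control 1 and 2, the same arrangement of libraries as for Ccl6. Its mean was 5.52 ± 2.31 CPM in the controls, and 9.96 ± 4.25 CPM after Yap-shRNA (SD, n = 3 each), with a log2 fold change of 0.85 (SE 0.39). Log2 CPM of Ccl6 and Ccl9 had a Pearson r of 0.95 over the 6 libraries and 0.94 after the group means were removed. These 6 points are not independent of one another, since the muscles come in pairs and both genes were read in the same libraries.

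As Ccl6 and Ccl9 varied alike, the 100 bases before their transcription starts are shown, from the RefSeq promoter table on GRCm38.p6, on the coding strand with the start site to the right. The stretch of Ccl6 is chr11:83593088-83593187 and that of Ccl9 is chr11:83578637-83578736, both on the minus strand. Capitals mark matches to the NF-kB consensus, AP-1 (TGANTCA) and TATAAA, on either strand.
Ccl6: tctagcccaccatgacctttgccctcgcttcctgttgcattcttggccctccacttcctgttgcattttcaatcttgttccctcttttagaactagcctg
Ccl9: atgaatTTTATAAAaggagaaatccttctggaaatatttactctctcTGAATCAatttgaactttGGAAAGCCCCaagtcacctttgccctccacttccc
The Ccl9 stretch holds an NF-kB match on the minus strand at 35 to 26 bases before the start, an AP-1 match at 53 to 47 and overlapping TATAAA matches on both strands between 94 and 87. The Ccl6 stretch holds none of them. Promoters of 6 of the 9 ligands (Ccl6, Ccl8, Ccl9, Cxcl12, Cxcl14 and Cx3cl1) were matched. Over the 250 bases before the start, 1 of these 6 held the NF-kB motif against 3.90% of 32851 promoters, 1 held AP-1 against 6.75%, and 3 (Ccl8, Ccl9 and Cx3cl1) held TATAAA against 12.4%. The letters GGAATG, which Tead factors, the DNA-binding partners of Yap, recognise, were in 0 of 6 on either strand, against 12.6% of all promoters. These matches are letters in a window and were not tested as sites.

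Ccl11, or eotaxin, attracts eosinophils through Ccr3 and lies between Ccl7 and Ccl8. It was nearly level between groups, with 260, 244 and 191 counts in control and 291, 239 and 209 in Yap-shRNA libraries. The CPM values of 20.2, 20.4 and 15.7 against 24.4, 18.4 and 16.7 overlapped, and the libraries of a group differed by more than the groups. The log2 fold change was 0.08 (SE 0.17), and it was -0.10 without Yap-shRNA 1 and 0.19 without Yap-shRNA 3.

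Cxcl12, the ligand of Cxcr4 and of the scavenger Ackr3, had the most reads of the 9 genes, with 1462, 1267 and 1381 in control libraries and 1309, 1713 and 1522 in Yap-shRNA libraries. At 114, 106 and 113 CPM the controls were closely grouped, with a coefficient of variation of 3.97%. The Yap-shRNA values of 110, 132 and 121 CPM were above all controls in replicates 2 and 3 and inside the control range in replicate 1. The log2 fold change was 0.12 (SE 0.10).

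Cxcl14, an abundant constitutive ligand of stromal tissue, had 798, 1114 and 853 counts in the controls and 1074, 989 and 940 after Yap-shRNA. Control 2 held the highest level, 93.1 CPM, and control 1 the lowest, 62.1 CPM, so that the 3 Yap-shRNA values of 90.1, 75.9 and 75.0 CPM all fell within the control range. Its log2 fold change of 0.10 (SE 0.15) was -0.02 without control 1.

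Cx3cl1, or fractalkine, is tethered to endothelial and other cells until Adam10 or Adam17 sheds it. It had 62, 22 and 31 counts in control libraries and 88, 39 and 50 in Yap-shRNA libraries, or 4.83, 1.84 and 2.54 CPM against 7.38, 2.99 and 3.99 CPM. In both groups replicate 1 was the highest, replicate 2 the lowest, and control 1 lay above Yap-shRNA 2 and 3. The log2 fold change of 0.63 (SE 0.41) was 0.18 without Yap-shRNA 1 and 1.12 without control 1.

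Set side by side, the fitted log2 fold changes were above 0 for all 9 ligands, where 48.9% of all genes were above 0, and above 1 for Ccl2 and Ccl7, where 0.265% of all genes were. Their median was 0.54, beside a median of -0.0029 over all genes, whose central 95% ran from -0.45 to 0.47. Ccl2, Ccl7, Ccl9, Cx3cl1 and Ccl6 lay outside that central range, and Ccl8, Cxcl12, Cxcl14 and Ccl11 inside it. The 0.265% and that range, here and below, cover genes of every depth, and neither was made for genes of like counts. Of all genes, 9.73% had total counts at or below that of Ccl7, and 18.9% at or below that of Ccl2. The SE was 0.40 for Ccl6 and 0.41 for Cx3cl1. By edgeR's quasi-likelihood test 0 of the 9 passed an adjusted p of 0.05, where the share of all genes was 0.00%, and by DESeq2 and by the likelihood ratio test 1 of them, Ccl2, was called, where the share was 0.0378%. Groups that did not overlap were found for 1 of 9 in the higher direction, against 2.56% of all genes, and for 0 of 9 in the lower, against 2.71%. The choice of the list used this same contrast, so these counts describe the ligands and lend no support to a difference.

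**Figure D2:**
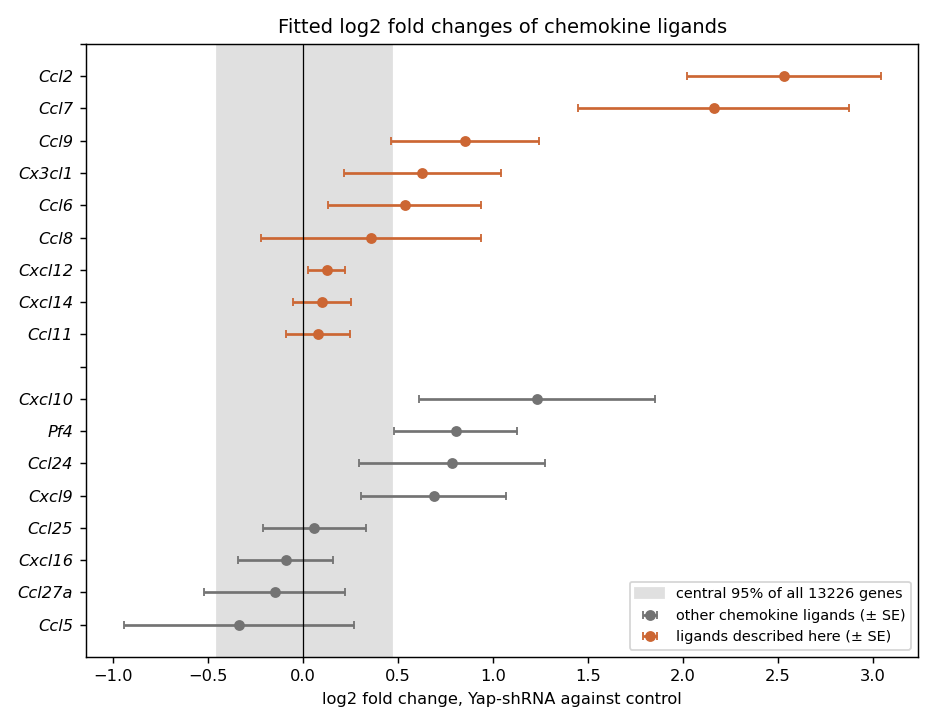
Fitted log2 fold change, Yap-shRNA against control, of the 9 ligands (orange) and of 8 other chemokine ligands of the table (grey), with bars of ± 1 SE; the grey band holds the central 95% of all 13226 genes, from -0.45 to 0.47. Ccl2 (2.53) and Ccl7 (2.16) have the highest values, with the lower end of the Ccl7 bar overlapping the bar of Cxcl10 (1.23), and Cxcl12, Cxcl14 and Ccl11 sit close to 0.

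The number of counts behind these values was low for several members. Over the 6 libraries Ccl8, Ccl7, Ccl2, Cx3cl1, Ccl9 and Ccl6 had 103, 112, 201, 292, 583 and 923 counts in all, against 1434 for Ccl11, 5768 for Cxcl14 and 8654 for Cxcl12, and the median gene of the table had 897. No gene of the deposited table had fewer than 60 counts over the 6 libraries, and the control counts of Ccl2, Ccl7 and Ccl8 each sum to less than that, so the place of Ccl2 and Ccl7 in the table rests on their Yap-shRNA counts. The variance among the 3 control libraries was from 2.12 times the Poisson expectation for Cxcl12 to 42.6 times for Cxcl14. The coefficient of variation over control muscles was 120% for Ccl7, 72.7% for Ccl2, 71.0% for Ccl8, 56.8% for Ccl6, 50.9% for Cx3cl1 and 41.9% for Ccl9, and 14.3% for Ccl11.

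Compared per kb of exon, the order of the ligands in control muscles was led by Cxcl14 at 41.1 ± 8.83 CPM per kb (SD, n = 3), then Ccl11 at 17.3 ± 2.48 and Cxcl12 at 13.6 ± 0.539, and the libraries of each of these 3 did not overlap with those of the next in order. The length was the union of all annotated exons, 8176 bp for Cxcl12. By the principal transcript of 3132 bases, an alternative added after the values were seen, Cxcl12 stood at 35.4 ± 1.41 CPM per kb, above Ccl11 and overlapping with Cxcl14, so the order of these 3 depends on the length used. By the union of exons, Ccl6 at 5.57 ± 3.16, Ccl8 at 2.35 ± 1.67, Ccl9 at 1.81 ± 0.760, Cx3cl1 at 0.781 ± 0.397, Ccl2 at 0.677 ± 0.492 and Ccl7 at 0.656 ± 0.785 CPM per kb followed, each overlapping with its neighbour. With Yap-shRNA the first 4 places were held by the same genes in the same order, at 44.0, 18.3, 14.8 and 8.08 CPM per kb, but Ccl11 and Cxcl12 overlapped. By the principal transcript Cxcl12, at 38.6 ± 3.47 CPM per kb, was again second to Cxcl14. Ccl2 was in place 8 (7 by the principal transcript) in control muscles and in place 5 by both lengths, at 3.99 ± 1.73 CPM per kb of the exon union, in Yap-shRNA muscles, where its libraries overlapped with those of Ccl6 above it and Ccl9 below it.

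**Figure D3:**
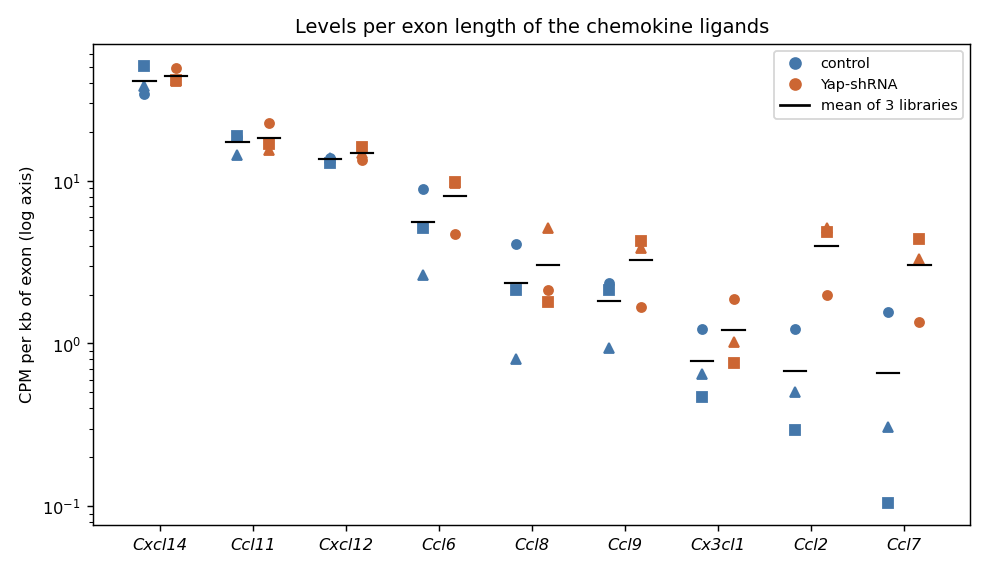
Level of each ligand per length, in CPM per kb of the union of exons on a log axis, ordered by the control mean; circles, squares and triangles are replicates 1, 2 and 3 of control (blue) and Yap-shRNA (orange) muscles, and lines are means of 3 libraries. Cxcl14, Ccl11 and Cxcl12 lead in both groups, and Ccl2 and Ccl7 are the lowest in control muscles, at 0.677 and 0.656 CPM per kb.

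In total the 9 ligands took 229, 239 and 210 CPM in controls 1, 2 and 3 and 250, 270 and 257 CPM in Yap-shRNA libraries 1, 2 and 3, and Cxcl12 and Cxcl14 together made up 76.4 to 87.1% of it. The 6 CC ligands summed to 48.2, 37.6 and 24.5 CPM in control and to 42.4, 59.1 and 56.8 CPM in Yap-shRNA libraries. Control 1 thus exceeded Yap-shRNA 1 in CC ligands. Ccl2 and Ccl7 together were 5.49, 1.11 and 3.34% of the CC sum in control libraries and 7.91, 15.3 and 14.9% in Yap-shRNA libraries. They were put together as the ligands with the highest fold changes of the 9. A higher share with Yap-shRNA follows from that choice and lends no support to a difference.

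Ccl2 and Ccl7 varied together over the libraries. Pearson r of their log2 CPM was 0.97 over the 6 libraries and 0.97 with group means removed, and Ccl7 was the gene in place 8 of the table by its r with Ccl2. Ahead of it were Zbp1, a sensor of nucleic acids, at an r of 0.99, Phc1, a Polycomb protein, at 0.98, Apln, which encodes the peptide apelin, at 0.98, Mgl2, a lectin of macrophages and dendritic cells, at 0.98 and Iglon5, a cell adhesion protein, at 0.98. Counts per library were 6 to 16 for Zbp1, 242 to 318 for Phc1, 27 to 80 for Apln, 51 to 87 for Mgl2 and 5 to 18 for Iglon5. Their log2 fold changes were 0.93, 0.20, 0.82, 0.53 and 0.88 in that order. In all, 20 genes had an r of at least 0.95. With the group means removed the r of the 5 named genes with Ccl2 was 0.95, 0.94, 0.97, 0.94 and 0.97 in that order, and other genes took the first 5 places. With a prior count of 0.5 in place of 2 in the log2 values, 4 of the 5 stayed in the first 5 places. With 6 libraries of which some share an animal, these values describe a likeness of pattern only. The other ligands were less like Ccl2, from 0.81 for Cxcl12 to -0.17 for Cxcl14.

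Cells that could be the source of CC ligands were followed through their markers, since in whole muscle fewer cells of a type and less RNA per cell cannot be told apart. Of 18 macrophage markers 17 were in the table, and their fitted log2 fold changes had a median of 0.32, with 15 of 17 above 0 (48.9% of all genes), 1 of 17 higher with groups that did not overlap (2.56% of all genes) and 0 called by edgeR's quasi-likelihood test (0.00%). Their sum was 300, 184 and 126 CPM in controls 1, 2 and 3 and 215, 258 and 273 CPM in Yap-shRNA libraries 1, 2 and 3. Control 1 had the highest sum and control 3 the lowest, the same ends as for Ccl6 and Ccl9 within the control group. Adgre1, which encodes F4/80, ran from 1.97 to 7.94 CPM in control and from 5.07 to 5.34 CPM in Yap-shRNA muscles, and Cd68 from 3.94 to 10.7 and from 7.63 to 14.2 CPM. The part of macrophages in the values was not tested for any of the ligands.

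The ratio of the ligands to that sum was set out as a description, in a comparison chosen after the values were seen. Per 1000 CPM of macrophage markers, Ccl2 stood at 4.66, 1.82 and 4.57 CPM in the controls, and at 10.6, 21.4 and 21.3 CPM after Yap-shRNA. Ccl7 stood at 4.14, 0.455 and 1.96 CPM in the controls, and at 5.08, 13.7 and 9.64 CPM after Yap-shRNA. On this scale the groups did not overlap for either gene, and the log2 differences were 2.32 and 2.50. Each is a difference between group means of log2 ratios without a prior count, in which the 1 count of Ccl7 in control 2 weighs heavily. That is another measure than the fitted 2.53 and 2.16, so the step from 2.16 to 2.50 for Ccl7 does not show an effect of the scaling. The share of all genes whose groups did not overlap on this scale was not computed. The ratio depends on the markers summed, so it does not test the part of macrophages. For Ccl6 and Ccl9 the log2 differences on this scale were 0.26 and 0.47, and the groups overlapped. For Ccl11, Cxcl12 and Cxcl14 the sign turned, to -0.31, -0.25 and -0.26. The marker sum was itself higher on average with Yap-shRNA, so dividing by it lowers the mean log2 difference of every gene alike. Values near 0 turn negative by this alone.

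**Figure D4:**
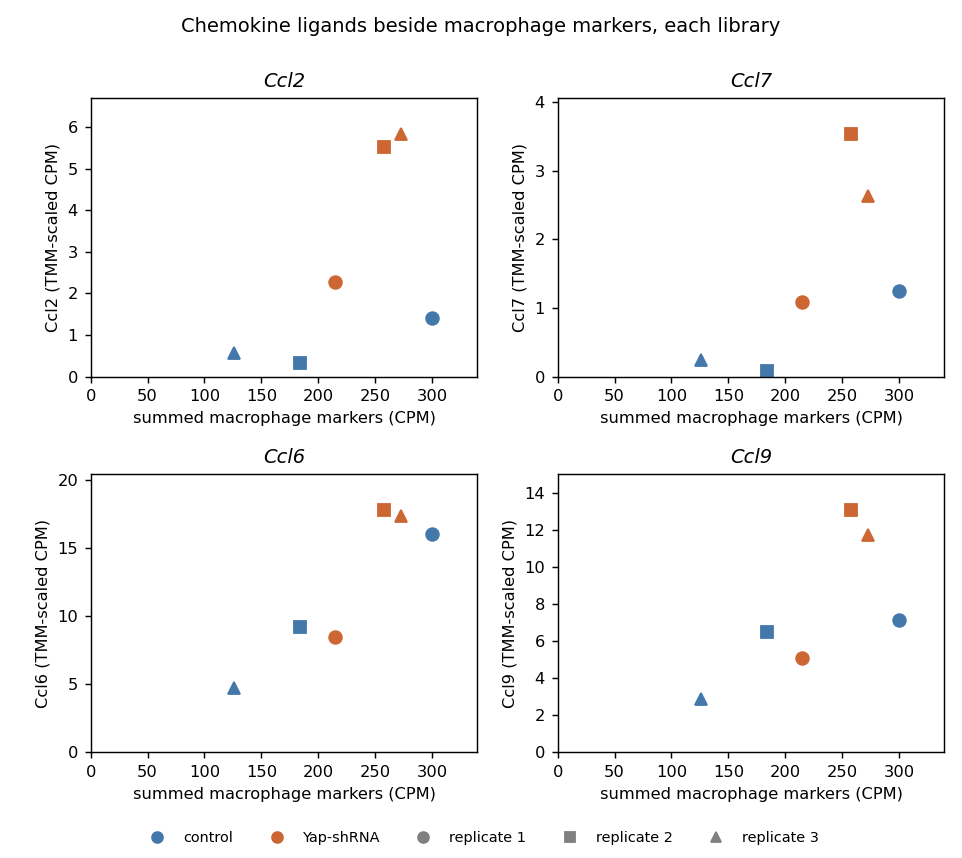
Ccl2, Ccl7, Ccl6 and Ccl9 (vertical, TMM-scaled CPM) against the summed CPM of 17 macrophage markers (horizontal) in each library; circles, squares and triangles are replicates 1, 2 and 3 of control (blue) and Yap-shRNA (orange) muscles. Control 1, at the highest marker sum of 300 CPM, has 1.40 CPM of Ccl2 and 16.0 CPM of Ccl6.

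For other leukocytes fewer markers were in the table. Of 6 monocyte markers 2 were in the table, with a median log2 fold change of 0.48, and they summed to 5.50 to 19.5 CPM in control and 12.5 to 18.6 CPM in Yap-shRNA libraries. The neutrophil list had 1 of 8 genes in the table, Csf3r, at 0.410 to 1.40 CPM in control and 0.718 to 1.09 CPM in Yap-shRNA muscles, and the lymphocyte list had 0 of 11. For eosinophils, the cells that Ccl11 attracts, the defining genes Siglecf, Prg2 and Epx were not among the rows analysed here. In the table were 5 mast cell genes, all 5 with fitted log2 fold changes above 0 (48.9% of all genes) and a median of 0.58. Kit, Cpa3, Cma1, Tpsb2 and Mcpt4 had 0.06, 0.43, 0.60, 0.58 and 0.72, and together they summed to 12.1, 18.1 and 5.66 CPM in controls 1, 2 and 3 and 17.3, 15.2 and 18.1 CPM in Yap-shRNA libraries 1, 2 and 3. Their groups overlapped, and their part in the ligands' values was not tested. Markers of fibro-adipogenic cells, stromal cells that make Cxcl12, Cxcl14 and several CC ligands in muscle, summed to 2237, 1432 and 1230 CPM in controls and 1474, 1447 and 2573 CPM in Yap-shRNA libraries. Control 1 and Yap-shRNA 3 were highest there, as they were for Ccl8, and the part of these cells in the Ccl8 values was not tested. The fibro-adipogenic markers had a median log2 fold change of 0.18, with 9 of 10 above 0 (48.9% of all genes). Of these markers 1 of 10 was higher with groups that did not overlap (2.56% of all genes), and 0 were called by the quasi-likelihood test (0.00%). For endothelial and mural markers the median log2 fold changes were 0.01 and -0.06.

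The receptors of these ligands were sparsely represented. Ccr2, the receptor of Ccl2 and Ccl7, had 122, 85 and 46 counts in control and 71, 137 and 99 in Yap-shRNA libraries, a log2 fold change of 0.26 (SE 0.32), and its groups overlapped. Cxcr4, the receptor of Cxcl12, had 51 to 90 counts in control and 53 to 72 in Yap-shRNA libraries. Ccr1, Ccr3, Ccr8 and Cx3cr1 were not among the rows analysed here. Neither Ccr2 nor Cxcr4 was called by the quasi-likelihood test, by DESeq2 or by the likelihood ratio test.

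Atypical receptors bind chemokines without G protein signalling and clear them. Ackr2, the scavenger of inflammatory CC ligands including Ccl2, Ccl7 and Ccl11, had 9, 9 and 10 counts in control and 16, 16 and 16 in Yap-shRNA libraries, a log2 fold change of 0.75 (SE 0.31) from so few reads. Its groups did not overlap, as for 2.56% of all genes, and it was not called by any of the 3 tools. Ackr3, which removes Cxcl12, was at 18.0 ± 2.48 CPM in the controls, and 21.2 ± 3.39 CPM after Yap-shRNA (SD, n = 3 each), with overlapping groups. Ackr1 and Ccrl2 had log2 fold changes of 0.30 and -0.01.

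Proteases that cut or shed the ligands had log2 fold changes with a median of 0.11. Adam10 and Adam17, which release Cx3cl1, had log2 fold changes of -0.04 (SE 0.14) and 0.03 (SE 0.11), and Dpp4, which trims and inactivates Cxcl12, one of 0.38 (SE 0.35). Mmp9, a gelatinase that also cuts chemokines, had 21, 17 and 18 counts in control and 32, 20 and 49 in Yap-shRNA libraries, a log2 fold change of 0.83 (SE 0.35), which lay outside the central 95% of all genes, and its groups overlapped. Mmp2 and Mmp14 had 0.13 and 0.08, and none of the 6 listed genes in the table was called by any of the 3 tools.

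Of 33 other chemokine ligands 8 were in the table, and none was called by any of the 3 tools. Log2 fold changes were above 0 for 5 of the 8 (48.9% of all genes), with a median of 0.37. Cxcl10, an interferon-induced ligand, had the highest, 1.23 (SE 0.62), from 13, 3 and 3 counts in control and 24, 12 and 9 in Yap-shRNA libraries, and its groups overlapped. Its control counts sum to less than 60, the fewest of any gene of the table over the 6 libraries allowed. The place of Cxcl10 in the table thus depends on its Yap-shRNA counts. Pf4 and Ccl24, made by macrophages among others, had 0.80 (SE 0.32) and 0.78 (SE 0.49), and Cxcl9 had 0.69 (SE 0.38). Ccl25, Cxcl16, Ccl27a and Ccl5 had 0.06, -0.09, -0.15 and -0.34. Among the 17 ligands of the table, 1 (Ccl2) had groups that did not overlap, where 2.56% of all genes did so in the higher and 2.71% in the lower direction.

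Genes that switch on Ccl2 and Ccl7 elsewhere were also followed. Tnf, Il1b and Il6 were not among the rows analysed here. Of 22 inducing cytokines and their receptors 15 were in the table, with a median log2 fold change of 0.16. Il33, an alarmin, and Tlr4, the receptor of lipopolysaccharide, had 0.56 (SE 0.26) and 0.52 (SE 0.32), above the central 95% of all genes, with overlapping groups. Tnfrsf1a, a receptor of Tnf, was at 31.8 ± 1.44 CPM in the controls, and 38.8 ± 4.46 CPM after Yap-shRNA (SD, n = 3 each), with groups that did not overlap, as for 2.56% of all genes. Of 16 NF-kB subunits, inhibitors and kinases all 16 were in the table, with 14 above 0 (48.9% of all genes). Their median of 0.10 lay inside the central 95% of all genes. Rela was at 24.0 to 25.9 CPM in the controls, and 28.6 to 30.5 CPM after Yap-shRNA, with groups that did not overlap, as for 2.56% of all genes, and a log2 fold change of 0.24 (SE 0.09). Nfkb1 and Nfkbia had 0.06 (SE 0.10) and 0.05 (SE 0.12). Of 20 genes that act below chemokine receptors 18 were in the table, with a median of 0.05. No gene of these 3 lists was called by the quasi-likelihood test, DESeq2 or the likelihood ratio test.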

How the data were processed

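Whole TA muscles of 3 control and 3 Yap-shRNA samples, grouped by their labels, were profiled by RNA-sequencing. The authors deposited raw read counts per gene, without normalisation. Per the labels, bcl2fastq 2.20.0.422 and the build GRCm38 were used. The aligner, the counter and its strand setting are not given in the sources used here, so reads of overlapping genes on opposite strands may not be separated. Ccl2 and Ccl6 each overlap such a gene, sharing 0 exonic bases.

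Counts were scaled by TMM and fitted over all 13226 genes with edgeR 4.0.16 (quasi-likelihood test, two-sided, group as the only term, Benjamini-Hochberg adjustment) in R 4.3.3. The SE was the log2 fold change over the square root of the test statistic. CPM carried no prior count, and log2 CPM for correlations used a prior count of 2. The biological coefficient of variation was 15.7%. No library repeated another of its group: in a chi-square test of their counts they differed by 7.62 to 21.4 times what sampling gives. On simulated counts for the 13226 genes of this comparison, the test recovered 74 of 102 genes changed by 1 on the log2 scale and 93 of 98 changed by 2, with 10 false calls. The simulated libraries were drawn independently, without paired animals, and held many changed genes. These rates therefore need not hold for the real libraries, where the same test called 0 genes. Gene models came from GENCODE M21, which matched 13199 gene IDs, and promoters from RefSeq.

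The named genes were set by rule: the 9 ligands, Yap1, their receptors and other ligands of the list held by the table, Adam10, Adam17, Dpp4, Tnf, Il1b, Il6, Rela, Nfkb1, Nfkbia, the first 2 genes in the table of each cell list, the 5 genes most like Ccl2, and any gene past the threshold in a fit. A gene that the rule covers is not reported here. Ackr1, Ackr2, Ccrl2, Mmp2, Mmp9, Mmp14, Il33, Tlr4, Tnfrsf1a, Cma1, Tpsb2 and Mcpt4 were named after their values were seen. The members and lists were chosen with earlier results of these data known. Alternatives were DESeq2 1.42.0, the likelihood ratio test, limma-voom (limma 3.58.1), other scalings, a filter of at least 10 counts in every library, a replicate block, leaving out each muscle and, added after seeing the data, scaling to macrophage markers and lengths of principal transcripts.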

Additional observations from a re-analysis of the deposited data

How the results depend on the processing

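No gene was called by the quasi-likelihood test, against 5 by DESeq2 (Hspb7, Rrad, Ccl2, Yap1 and Mir155hg) and 5 by the likelihood ratio test (Rrad, Ccl2, Yap1, Actc1 and Mir155hg), and 0 to 1 with each muscle left out, the 1 being Mir155hg without Yap-shRNA 3. Of the 9 ligands 1, Ccl2, was called by DESeq2 and by the likelihood ratio test, where the share of all genes was 0.0378% by each. The list was chosen with this contrast in view, so this call lends no support to a difference. For Yap1 the log2 fold change of -1.10 had an adjusted p of 0.436 by the quasi-likelihood test, 5.85e-07 at -1.10 by DESeq2 and 2.22e-06 at -1.10 by the likelihood ratio test, and it ran from -1.29 to -0.93 with each muscle left out. The cause of the gap between tests was not tested.

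The number of ligands with groups that did not overlap was 1, where 2.56% of all genes did so in the higher direction, and 1 to 5 with each muscle left out: 5 without Yap-shRNA 1, 3 without control 1 and 2 without control 2, all higher, where 6.48, 11.8 and 6.78% of all genes did so. Among 105 planned refits of the ligands' log2 fold changes, 1 moved by more than 1 SD between muscles, Ccl7 without control 1 (3.80). The scaling to macrophage markers lowers the mean log2 difference of every gene alike. With it Ccl11, Cxcl12 and Cxcl14 stood further than that from their fitted values, at -0.31, -0.25 and -0.26. These scaled values are differences of mean log2 ratios, another measure than the fit. A filter of 10 counts in every library removes Ccl2, Ccl7 and Ccl8, so no value was had for them.

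The labels do not state that the replicate number is the animal, so the numbers were not taken as pairs. Same-numbered muscles deviated together with correlations of -0.07, 0.20 and -0.32, and differently numbered muscles with correlations from -0.36 to 0.38. With so few muscles these values cannot decide which muscles are pairs. With the replicate number as a block 0 genes were called, and log2 fold changes were 2.49 for Ccl2, 2.19 for Ccl7 and -1.13 for Yap1. Depth limits Ccl2, Ccl7 and Ccl8 most, with 1 to 27 counts in control libraries.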
